A study of Caenorhabditis elegans with 12 samples.

Results

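Small nucleolar RNAs (snoRNAs) were followed as the rows that the deposited *C. elegans* transcript tables give the biotype snoRNA, which were 345 genes of 46726 worm genes other than rRNA. snoRNAs are short RNAs of the nucleolus that guide the chemical modification of other RNAs, above all of rRNA. Box C/D snoRNAs work with the methyltransferase fibrillarin in 2′-O-methylation, and box H/ACA snoRNAs with a pseudouridine synthase. In animals many of them are cut out of introns of protein-coding genes. Which of the 345 genes belong to which class was not determined here.

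The study used vIPR, in which RNA and bound proteins are crosslinked in live young adult worms and a transcript is then pulled down with biotinylated DNA probes. Its RNA sequencing comprised 1 total RNA library, 4 inputs (lysate before the pulldown) and 7 elutions (RNA recovered with the probes), with 1 library per condition. BS1080 worms, with a *gld-1::gfp* transgene, gave the total RNA (Trizol extraction, in a library titled PAR-XL but described as without crosslinking), the input and *gfp* probe elution of PAR-XL (4SU labelling and UV), the *gfp* probe elution of PFA-XL (paraformaldehyde), and the input and *gfp* probe elution of cXL (conventional UV). DG3913 worms, with *gfp::lin-41* at the endogenous locus, gave a cXL input and *gfp* probe elution. Wild-type N2 worms gave 1 cXL input shared by the elutions with probes against *alg-1*, *gld-1* or *lin-41*. By the paper's methods, worms for PAR-XL were labelled with 4SU in liquid culture. Worms for cXL and PFA-XL were grown on plates and typically harvested after fewer hours. The input and the elution of PAR-XL are from separate pulldowns, the PFA-XL elution has no input of its own among these libraries, and every elution was mixed with human HEK carrier RNA. All libraries were made from whole worms, so a snoRNA level is a mean over all tissues, and fewer cells of a type cannot be told apart from less RNA per cell.

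Between 268787 (N2 *alg-1* elution) and 26695650 (PAR-XL input) estimated counts per library fell on worm genes other than rRNA. Levels are given as estimated counts, as counts per 1000000 of these worm non-rRNA counts (CPM), which do not correct for length, and as TPM rescaled to 1000000 over the same genes, which do. Since no condition was replicated, no difference below has a replicate check, and no p-value is given. The 95% intervals cover counting error only. The germline marker *glp-1* and the muscle marker *unc-54* were present in every library, while the intestinal regulator *elt-2* was at 0 in 4 of the 7 elutions. *elt-2* was already low in the cXL inputs, with 147, 107 and 48 counts in BS1080, DG3913 and N2. The intestinal gene *ges-1* was at 0 in the N2 *alg-1* elution only, so these zeros do not show that intestinal RNA was missing.

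Most snoRNA reads were in the total RNA library. The snoRNA share was 277 CPM (95% CI 269.5 to 284.7) in total RNA, from 5145 counts. It was 14.1 CPM (95% CI 12.8 to 15.6) in the PAR-XL input, from 377 counts. The 3 cXL inputs lay far below the PAR-XL input and close to each other. The BS1080 cXL input had 0.971 CPM (95% CI 0.614 to 1.53, 18 counts), the DG3913 input had 1.17 CPM (95% CI 0.741 to 1.85, 18 counts), and the N2 input had 1.06 CPM (95% CI 0.621 to 1.82, 13 counts). The intervals of these 3 inputs overlap.

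Of the elutions, the PFA-XL elution had 31 snoRNA counts or 1.77 CPM (95% CI 1.25 to 2.52), the PAR-XL elution 3 counts or 0.966 CPM (95% CI 0.328 to 2.84), and the N2 *gld-1* elution 1 count or 0.323 CPM (95% CI 0.0570 to 1.83). The other 4 elutions had 0. A count of 0 allowed up to 2.03 CPM in the N2 *lin-41* elution, 2.13 CPM in the DG3913 elution, 3.49 CPM in the BS1080 cXL elution and 11.2 CPM in the N2 *alg-1* elution. All 4 limits are above the shares of the cXL inputs, so these libraries are too shallow to show whether they held less.

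**Figure D1:**
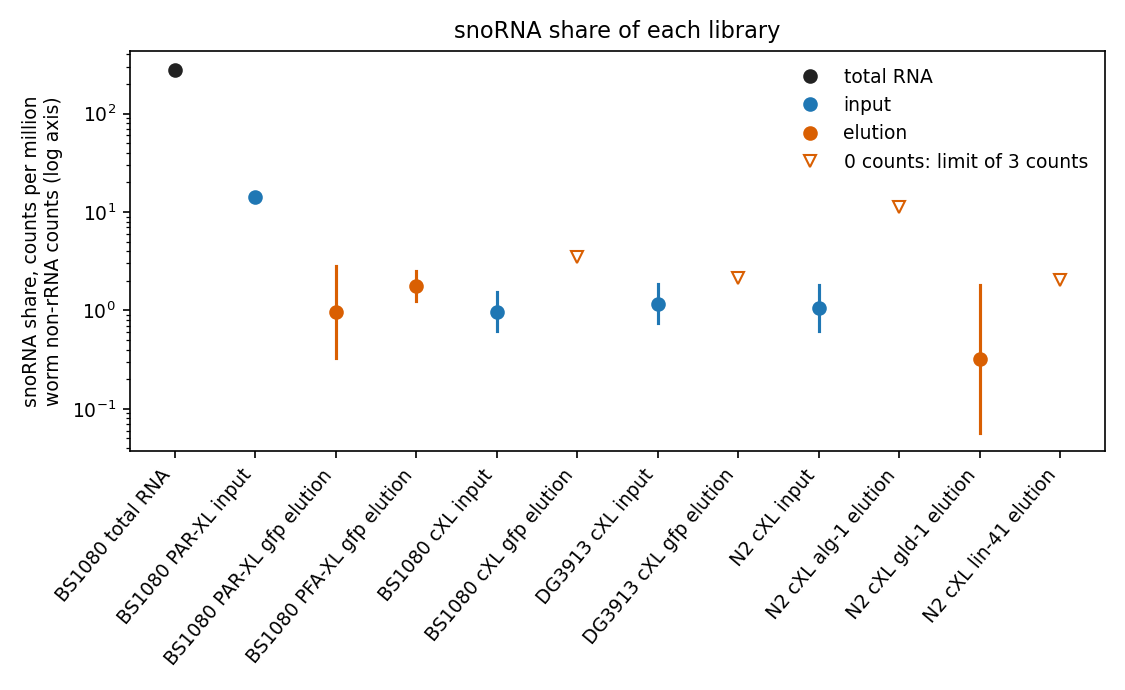
snoRNA share of each library in CPM of worm non-rRNA counts (log axis). Points are shares with 95% Wilson intervals, open triangles mark the limit that a count of 0 allows. Total RNA (277) and the PAR-XL input (14.1) stand above the other libraries, whose shares are at most 1.77.

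On the TPM scale the snoRNAs together had 4759 TPM in total RNA, which is 0.476% of the worm non-rRNA TPM. They had 186.4 TPM in the PAR-XL input, 14.9, 21.1 and 18.4 TPM in the BS1080, DG3913 and N2 cXL inputs, 33.6 TPM in the PAR-XL elution, 63.9 TPM in the PFA-XL elution and 9.21 TPM in the N2 *gld-1* elution. The PAR-XL elution value rests on 3 counts of a single gene, for which the deposited effective length was 58.4 bases, so that each count stood for 11.2 TPM.

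Most of the annotated snoRNAs had no reads. In total RNA 115 of the 345 genes had at least 1 estimated count, 46 had at least 3 and 13 had at least 10. In the PAR-XL input these numbers were 31, 21 and 7. In the 3 cXL inputs 2, 1 and 1 genes had a count, and in the elutions at most 1. No snoRNA reached 10 counts in all 12 libraries, and 229 of the 345 had none in any. Of the 115 genes detected in total RNA, 30 (26.1%) were also detected in the PAR-XL input, and these were 96.8% of the 31 detected there. The gene detected in the PAR-XL input alone was D2023.18, a 241-base snoRNA between genes on chromosome V, with 5 counts against 0 in total RNA.

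The detected members were the long ones. The 345 snoRNAs are annotated as 54 to 344 bases long, with a median of 130. The 115 detected in total RNA had a median of 169 and none was under 108 bases, while the 230 below 1 count had a median of 113. The 31 detected in the PAR-XL input had a median of 226 and none was under 183 bases. In the cXL inputs and the elutions the only members with a count were K10D3.10 (325 bases) and Y73B3A.30 (328 bases).

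By length class, none of the 93 snoRNAs under 100 bases had a count in total RNA. Of the 142 snoRNAs of 100 to 150 bases, 40 were detected in total RNA with 78 counts in all, and 0 in the PAR-XL input. Of the 110 over 150 bases, 75 were detected in total RNA and 31 in the input of PAR-XL, which is every snoRNA seen there. The 14 members of 250 bases and over were all detected in total RNA, with 338 counts, and 11 of them in the PAR-XL input, with 321 counts. The counts of this longest class were thus similar in both libraries, whereas those of 150 to under 200 bases went from 170 counts over 42 genes to 18 over 7.

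The libraries also differ in the fragment length the authors set for quantification, which moves with these lengths. It was 151 bases for total RNA, 221 for the PAR-XL input, and 286, 302 and 314 for the BS1080, DG3913 and N2 cXL inputs. It was 250 for the BS1080 cXL elution and between 305 and 374 for the other 6 elutions. Of the 345 snoRNAs, 109 were longer than this length in total RNA, 29 in the PAR-XL input, 6, 4 and 4 in the cXL inputs, and at most 13 in an elution. Its part in the snoRNA levels, and that of the recovery of short RNA in library preparation, was not tested.

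**Figure D2:**
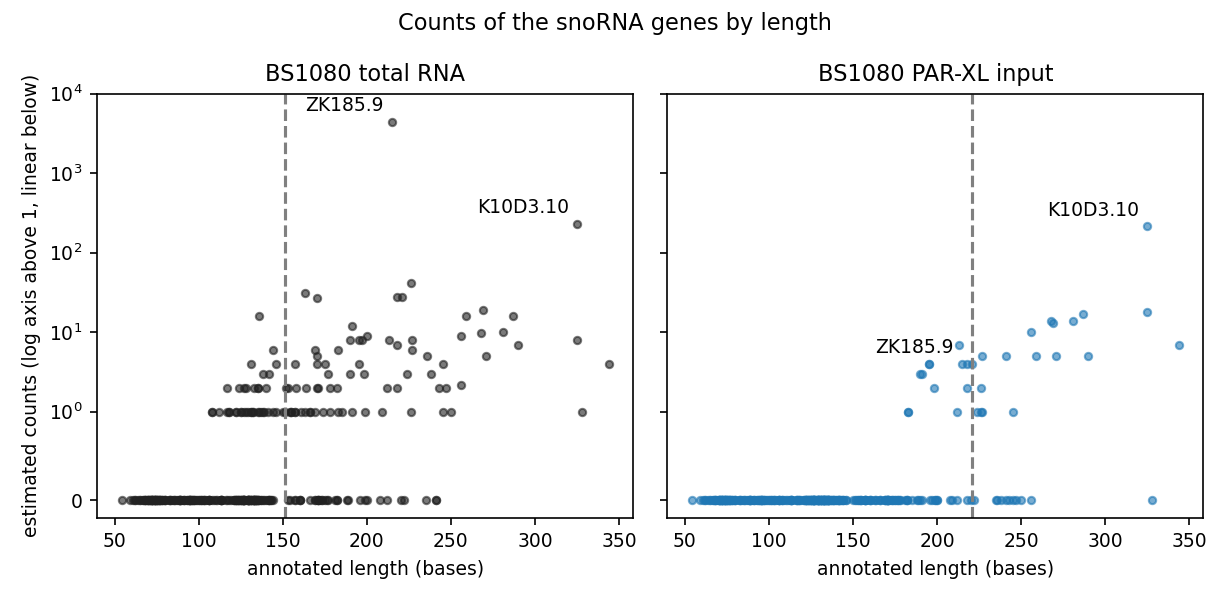
Estimated counts of the 345 snoRNA genes (log axis above 1, linear below) against annotated length in bases, for total RNA and the PAR-XL input. Each point is a gene, and the dashed lines mark the fragment lengths of 151 and 221 bases. The shortest detected snoRNA is 108 bases long in total RNA and 183 in the input.

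Genes of the biotype ncRNA under 250 bases were also detected less often in the PAR-XL input than in total RNA. Those of 250 to under 350 bases were not. Among genes of the biotype ncRNA with a longest transcript under 150 bases, 10.3% of 5236 had a count in total RNA and none in the PAR-XL input, against 16.7% and 0% of the 234 snoRNAs of that length. At 150 to under 200 bases, 60.9% and 10.1% of 69 snoRNAs were detected in total RNA and the PAR-XL input, against 30.5% and 6.10% of 1082 ncRNA genes. At 200 to under 250 bases, the shares were 71.4% and 46.4% of 28 snoRNAs, against 47.4% and 35.4% of 802 ncRNA genes. At 250 to under 350 bases they were 100% and 78.6% of 14 snoRNAs, against 55.6% and 61.2% of 387 ncRNA genes. In each class a larger share of snoRNAs than of ncRNA genes was detected in total RNA. The snRNAs, the RNAs of the spliceosome, had 82.6 counts over 9 of 130 rows in total RNA and 0 in all other libraries. The 637 tRNA rows were at 0 in all 12.

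**Figure D3:**
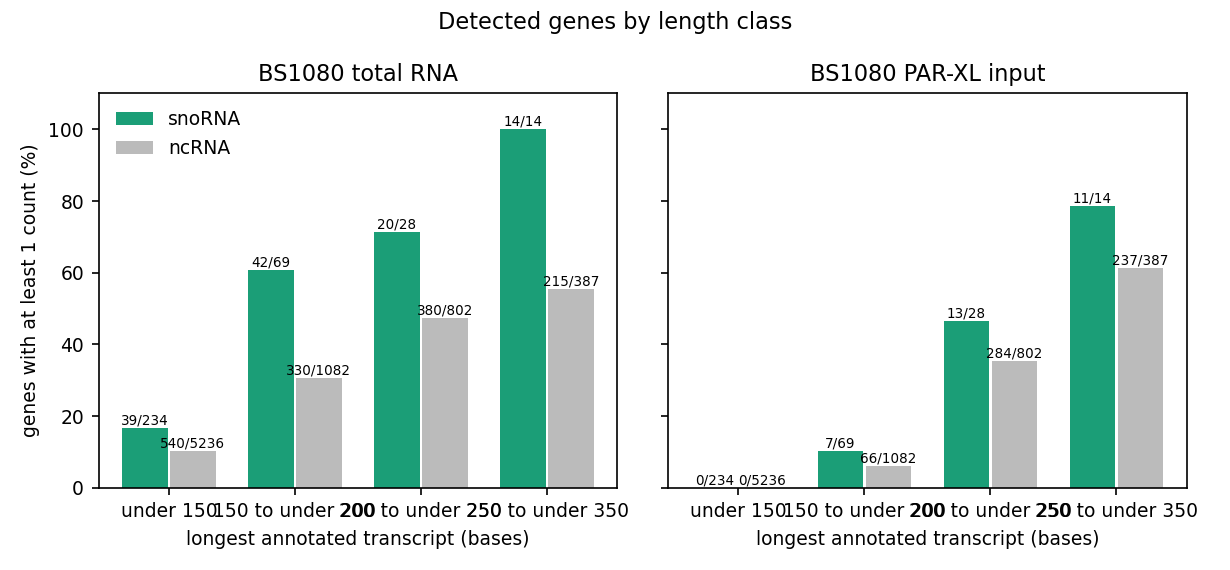
Percentage of genes with at least 1 estimated count, by the length of the longest annotated transcript, for snoRNAs and for genes of the biotype ncRNA in total RNA and the PAR-XL input. Numbers above the bars give detected genes of all genes in the class. Under 150 bases both kinds are at 0 in the input.

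The human snoRNAs of the carrier RNA, which passed through the same 7 elution libraries, also had counts on long rows only. All of their counts fell on the 8 rows of 250 bases and over, and none on the 843 rows under 150, the 32 rows of 150 to under 200 or the 78 rows of 200 to under 250 bases. Their share of human non-rRNA counts was 3596 CPM in the PAR-XL elution and 1755 CPM in the PFA-XL elution. It was lower in the cXL elutions, with 405 CPM for BS1080, 127 CPM for DG3913, and 63.0, 182 and 151 CPM for the N2 *alg-1*, *gld-1* and *lin-41* elutions. SNORD3A, a U3 snoRNA that acts in rRNA processing and is listed with 699 bases, led in the PAR-XL elution (86.1% of human snoRNA counts) and the PFA-XL elution (62.0%). SCARNA10, a Cajal body RNA of 330 bases, led in 4 of the 5 cXL elutions. With the counts on so few rows, length and the abundance of these RNAs cannot be told apart. The worm snoRNA counts of the 7 elutions were on K10D3.10 alone, so they show no dependence on length to compare. The carrier RNA was added before RNA isolation, after the pulldown. The cXL elutions were depleted of rRNA by another method than the elutions of PAR-XL and PFA-XL, and the part of this step in the human shares was not tested.

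Within total RNA the snoRNA counts were concentrated in a single gene. ZK185.9 (WBGene00220238, 215 bases, chromosome IV of WBcel235, 4538702 to 4538916, minus strand) had 4399 of the 5145 counts, or 85.5%. It lies in an intron of *ZK185.2* on the opposite strand. ZK185.9 was at 237 CPM and 3859 TPM in total RNA, and ranked 766 by count among 21563 worm genes with at least 1 count. In the PAR-XL input it had 4 counts (0.150 CPM, 4.32 TPM), and it had 0 in the other 10 libraries. *ZK185.2* itself had 58 counts in total RNA and 57 in the input of PAR-XL. The share of ZK185.9 was thus 1581-fold lower in the PAR-XL input (ratio 0.000633, 95% CI 0.000172 to 0.00162), while that of the gene around it was 0.684 times as high (95% CI 0.466 to 1.00). At 215 bases it is shorter than the fragment length of 221 set for the PAR-XL input.

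Without ZK185.9 the other 344 snoRNAs had 40.2 CPM (95% CI 37.4 to 43.1) in total RNA and 14.0 CPM (95% CI 12.6 to 15.5) in the PAR-XL input. The 114 of them detected in total RNA had a median of 2 counts, and 48 had exactly 1. With ZK185.9 the snoRNA share was 19.6-fold lower in the PAR-XL input than in total RNA (ratio 0.0509, 95% CI 0.0458 to 0.0566), and without it the ratio was 0.348 (95% CI 0.306 to 0.394). The median ratio of all 16384 genes tested was 0.859, which is -0.22 on the log2 scale. The summed ratio of the class was therefore below that median with and without its leading member, but the size of the difference rests on ZK185.9. The median is per gene and not matched for length, and ratios by length are given below.

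The next gene was K10D3.10 (WBGene00220019, 325 bases, chromosome I, 7139060 to 7139384, minus strand). It had 230 counts in total RNA (12.4 CPM, 75.2 TPM) and 213 in the PAR-XL input (7.98 CPM, 69.8 TPM). K10D3.10 had 17, 18 and 13 counts in the BS1080, DG3913 and N2 cXL inputs. It had 31 in the PFA-XL elution, 3 in the PAR-XL elution, 1 in the N2 *gld-1* elution and 0 in the other 4 elutions. Every snoRNA count of the 7 elutions was on this gene, as were all snoRNA counts of the cXL inputs except 1 count of Y73B3A.30 in the BS1080 input.

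K10D3.10 lies inside an exon of *hpo-11*. In Ensembl release 115, the 3′ UTR of *hpo-11* extends from 7140277 down to 7138482 on the same strand, and the snoRNA is within it. The *hpo-11* row of the authors' index ends at 7140278, which is 894 bases before the snoRNA begins. Reads from that stretch of *hpo-11* mRNA would fall on the K10D3.10 row. The snoRNA and this mRNA therefore cannot be told apart in these counts. Another protein-coding gene of the authors' index, *K10D3.4*, spans the snoRNA on the same strand, from 7139973 down to 7134743. Its counts were 410 (total RNA), 738 (PAR-XL input) and 143, 130 and 74 (BS1080, DG3913 and N2 cXL inputs). Whether reads of K10D3.10 came from *K10D3.4* transcripts was not tested.

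*hpo-11* had 2265 counts (122 CPM) in total RNA, 2899 (109 CPM) in the PAR-XL input, 1842, 1703 and 1032 in the BS1080, DG3913 and N2 cXL inputs, 255 in the PAR-XL elution and 888 in the PFA-XL elution. K10D3.10 counts were 10.2% of *hpo-11* counts in total RNA, 7.35% in the PAR-XL input and 0.923%, 1.06% and 1.26% in the cXL inputs. Among the elutions they were 3.49% after PFA-XL, 1.18% after PAR-XL and 0.741% with *gld-1* probes. The percentages are thus highest in the 2 libraries with the shortest set fragment length. On the TPM scale, K10D3.10 was at 104% of *hpo-11* TPM in total RNA, 120.2% in the PAR-XL input, 25.6%, 29.3% and 34.9% in the cXL inputs, 32.9% in the PAR-XL elution, 95.8% after PFA-XL and 18.7% in the N2 *gld-1* elution. Those ratios of TPM rest on effective lengths of K10D3.10 of 175 bases in total RNA, 106 in the PAR-XL input and 58.4 to 65.3 in the other libraries named here.

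**Figure D4:**
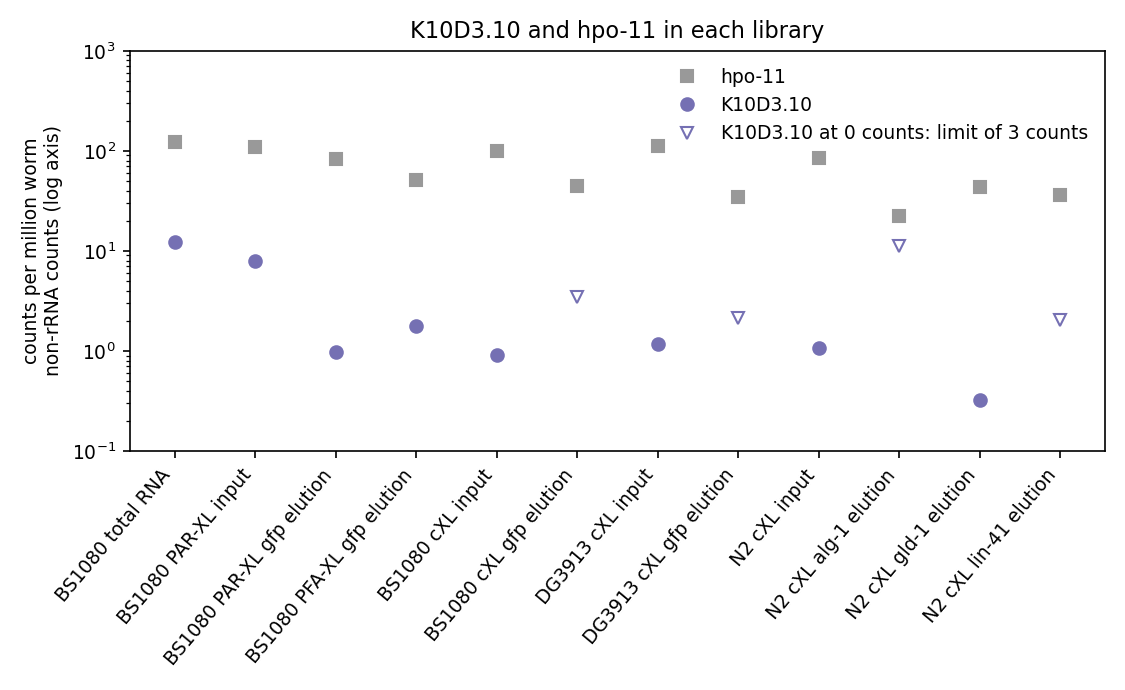
CPM of worm non-rRNA counts (log axis) of K10D3.10 and of *hpo-11*, whose 3′ UTR contains it, in each of the 12 libraries. Open triangles mark the limit that a count of 0 allows. *hpo-11* is above K10D3.10 in every library, with 122 and 12.4 in total RNA.

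The other leading snoRNAs were far lower. F25H2.14 (226 bases, chromosome I, in an intron of *tct-1*, the translationally controlled tumour protein homologue) had 41 counts in total RNA and 2 in the input of PAR-XL. B0228.10 (163 bases, chromosome II, in an intron of the copine gene *cpna-2*) had 31 and 0. F17C11.15 (218 bases, chromosome V, in an intron of the elongation factor gene *eef-1G*) and Y24D9A.9 (221 bases, chromosome IV, in an intron of the ribosomal protein gene *rpl-7A*) each had 28 and 4. ZK858.10 (170 bases, chromosome I, in the 3′ UTR of the poly(A) polymerase gene *gld-4*) had 27 and 0. All 5 are under 250 bases and had fewer counts in the deeper PAR-XL input than in total RNA. These 5 were chosen by their mean share over total RNA and the inputs, a mean set mainly by total RNA. That choice favours fewer counts in the input. F25H2.14 also overlaps an exon of the ncRNA *F25H2.16* on the opposite strand, which was at 0 in both libraries.

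The leading members over 250 bases had counts of the same order in both libraries, of which the PAR-XL input is the deeper. T24H10.12 (269 bases, chromosome II, opposite an intron of the transcription factor gene *jun-1*) had 19 counts in total RNA and 13 in the input of PAR-XL. C41C4.16 (287 bases, chromosome II, in an intron of the SUMO protease gene *ulp-4*) had 16 and 17. F19G12.14 (325 bases, X chromosome, opposite an intron of *F19G12.10* in Ensembl release 115) had 8 and 18, and T15H9.8 (281 bases, chromosome II, in an intron of the DnaJ chaperone gene *dnj-20*) had 10 and 14. None of these members had a count in a cXL input or an elution, although F19G12.14 is longer than the fragment lengths set for the 3 cXL inputs.

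Of the 345 snoRNAs, 13 had at least 20 counts summed over total RNA and the PAR-XL input, the minimum set for a comparison of single genes. At a fold of 2, 8 of the 13 were lower in the PAR-XL input and 0 were higher, while the same rule gave 11.6% lower and 2.68% higher among all 16384 genes tested. Of the 8, 6 reached the minimum through total RNA alone, which favours a lower ratio, so the count is no measure of the class. With at least 10 counts in each library, 1 of 4 snoRNAs was lower, against 10.5% of all genes. The 8 include B0228.10 and ZK858.10, whose 0 counts in the input make them at least 14.9-fold and 12.9-fold lower against a limit of 3 counts. F25H2.14 was 29.5-fold lower (ratio 0.0339, 95% CI 0.00398 to 0.131), and F17C11.15 and Y24D9A.9 were each 10.1-fold lower (ratio 0.0994, 95% CI 0.0253 to 0.284). F21F12.3 (259 bases, opposite an intron of the protein kinase A gene *kin-1*) had 16 and 5 counts, a ratio of 0.217 (95% CI 0.0623 to 0.621). T24H10.12 was only just past the fold, at 0.476, and its interval of 0.216 to 1.02 reaches 1.

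The 5 members not past the fold were all over 250 bases. K10D3.10 had a ratio of 0.644 (95% CI 0.532 to 0.780), against 0.891 for *hpo-11* (95% CI 0.843 to 0.941). The 3 highest ratios were 1.57 for F19G12.14 (95% CI 0.648 to 4.16), 0.974 for T15H9.8 (95% CI 0.402 to 2.45) and 0.965 for Y71G12B.41 (95% CI 0.402 to 2.45), and the intervals of all 3 include 1. Y71G12B.41 (268 bases, chromosome I) overlaps an exon of the antisense RNA *Y71G12B.44*, and its estimated counts of 9.89 and 13.7 were not whole, as where kallisto divides shared reads. Its values are therefore uncertain. With TPM in place of counts, 1 of the 13 snoRNAs was higher by the fold, since F19G12.14 had 2.61 TPM in total RNA and 5.90 TPM in the input.

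Among the other genes tested the ratios also differed by length. Under the same minimum, the snoRNAs of 200 to under 250 bases had a median ratio of 0.0667 (4 genes, all lower), against 0.273 for 65 other genes of that length, of which 80.0% were lower. The snoRNAs of 250 to under 350 bases had a median ratio of 0.739 (7 genes, 28.6% lower), against 0.526 for 325 other genes, of which 46.5% were lower. For the 10491 other genes of 1000 bases and over the median was 0.900 and 7.76% were lower. All 20 other genes under 200 bases were lower, as were the 2 snoRNAs of that length. All snoRNAs compared under 250 bases reached the minimum through total RNA alone, which favours low ratios. How many of the other short genes did so was not counted. Under this minimum, a lower level in the PAR-XL input was seen in short genes of other kinds too.

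**Figure D5:**
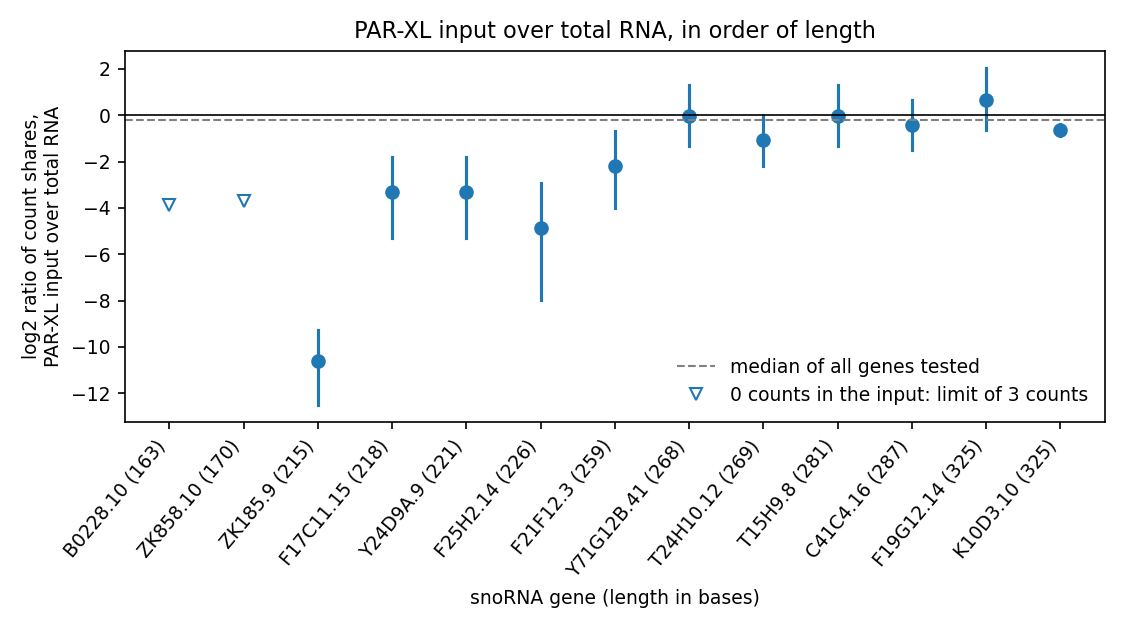
log2 ratio of count shares, PAR-XL input over total RNA, for the 13 snoRNA genes with at least 20 counts over both libraries, in order of length. Lines are 95% intervals from counting error, and open triangles mark the limit of 3 counts for genes at 0 in the input. ZK185.9 is lowest, and the genes from 268 bases on lie closer than the others to the dashed median of all genes tested (-0.22).

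Some of the genes that hold these snoRNAs differed less than the snoRNAs. The host *tct-1* had an input to total RNA ratio of 1.11, *eef-1G* of 1.32 and *rpl-7A* of 1.34. The snoRNAs inside them were 29.5-fold, 10.1-fold and 10.1-fold lower. The host *gld-4* had a ratio of 0.986. The snoRNAs of these hosts were compared through their total RNA counts alone, which favours low ratios, and are shorter than the hosts. Other genes of 200 to under 250 bases had a median ratio of 0.273. It was 0.792 at 350 to under 1000 bases and 0.900 at 1000 and over. The contrast with hosts is not matched for length or counts. Whether it is specific to snoRNAs was not tested. *cpna-2*, the host of B0228.10, was itself lower, with a ratio of 0.439 (95% CI 0.429 to 0.449). Among the members near the median, *ulp-4* had a ratio of 0.750 beside 0.739 for C41C4.16, and *dnj-20* had 0.849 beside 0.974 for T15H9.8. Reads of an unspliced host transcript would also fall on the row of an intronic snoRNA, and these cannot be told apart from the mature snoRNA.

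By position in Ensembl release 115, 120 of the 345 snoRNAs lay in an intron of a gene on the same strand, 22 in an intron on the opposite strand, 56 overlapped an exon on the same strand, 39 an exon on the opposite strand, and 108 lay between genes. In total RNA, 45 of the 120 in same-strand introns were detected with 240.0 counts, and 42 of the 108 between genes with 92 counts. Of the 95 that overlap an exon, 18 were detected. Within the class of 150 to under 200 bases, 87.5% of 16 snoRNAs in same-strand introns were detected in total RNA, against 57.6% of 33 between genes and 31.3% of 16 that overlap an exon. At 200 bases and over, 100% of 10 intronic members, 82.4% of 17 between genes and 54.5% of 11 exonic members were detected. The 4 members in opposite-strand introns of each class were all detected. In the PAR-XL input, 2 of the 16 same-strand intronic members of 150 to under 200 bases were detected (12.5%), against 3 of the 16 exonic ones (18.8%) and 3.03% of those between genes. At 200 bases and over the values were 90% (same-strand intronic), 45.5% (exonic) and 35.3% (between genes). Same-strand intronic members were thus above exonic ones except in the shorter class of the input, where few genes were detected. Members between genes were above exonic ones in total RNA and below them in the input.

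Exonic snoRNAs held 354 of 5145 counts in total RNA but 249 of 377 in the PAR-XL input, most of them from K10D3.10. With all 95 exonic members left out, the snoRNA share was 258 CPM in total RNA, 4.79 CPM in the PAR-XL input and 0.0539 CPM in the BS1080 cXL input, and 0 in the other 2 cXL inputs and all 7 elutions. The ratio of PAR-XL input to total RNA was then 0.0186 (95% CI 0.0155 to 0.0222). Outside exons, therefore, the cXL inputs together held 1 snoRNA count.

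snoRNAs were detected on every nuclear chromosome, from 25.4% of the 59 members on chromosome IV to 41.5% of the 53 on chromosome III. When ranked by TPM, which divides by effective length, shorter members came forward. B0228.10 (163 bases) had 73.2 TPM in total RNA from 31 counts, close to the 75.2 TPM that K10D3.10 had from 230. Y43F4B.12 (136 bases, in an intron of the kinesin gene *klp-19*) was the fourth snoRNA by TPM, with 63.2 TPM from 16 counts. The 39 detected members under 150 bases held 1.50% of the snoRNA counts and 6.72% of the snoRNA TPM of the total RNA, with effective lengths of 9.51 to 17.3 bases, so that 1 count stood for 3.30 to 6.01 TPM.

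In the pulldowns the question was whether snoRNAs were carried over into the elution. In the BS1080 PAR-XL pulldown the snoRNA share was 0.0684 times that of the input (95% CI 0.0140 to 0.201), with 3 counts in the elution where the input share would give 43.8. The median ratio of the 14970 genes tested was 0.238, and relative to it the snoRNA ratio was 0.288. In TPM the snoRNA ratio was 0.180. The target held 74.1% of the worm non-rRNA counts of this elution, and with the target left out of both totals the snoRNA ratio was 0.264. The comparison rests on K10D3.10, the only member tested, with a ratio of 0.121 (95% CI 0.0248 to 0.359) against 0.756 for *hpo-11* (95% CI 0.662 to 0.859). A share lower by the fold of 2, as that of K10D3.10, was found for 78.4% of all genes tested in this pulldown. The fragment lengths set for the input and the elution of this pair were 221 and 318 bases. By the paper's methods, rRNA was also depleted in different ways in inputs and in this elution. The part of these differences was not tested. The control mRNA *tbb-2*, which codes for a tubulin, had a ratio of 0.0795.

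The cXL pulldowns were too shallow for snoRNAs. At the share of their inputs, the elutions would have held 0.833 (BS1080), 1.65 (DG3913), 0.286 (N2 *alg-1*), 3.29 (N2 *gld-1*) and 1.57 (N2 *lin-41*) snoRNA counts. They held 0, 0, 0, 1 and 0. The ratio of the N2 *gld-1* elution was 0.304 (95% CI 0.00714 to 2.02), near the median of 0.252 over 10331 genes tested, relative to which it was 1.21. The upper bounds of the others were 4.91 (BS1080), 2.48 (DG3913), 14.9 (*alg-1*) and 2.72 (*lin-41*), so neither a higher nor a lower share of snoRNAs was detectable at this depth. The 3 N2 elutions share their input and are not independent of each other.

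The PFA-XL and PAR-XL elutions of *gld-1::gfp* can be set side by side only. K10D3.10 had 1.77 CPM and 63.9 TPM after PFA-XL and 0.966 CPM and 33.6 TPM after PAR-XL, from 31 and 3 counts, at set fragment lengths of 317 and 318 bases. The intervals of the CPM values overlap.

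mRNAs for the proteins of snoRNA particles were detected in all 12 libraries. They included the box C/D genes *fib-1* (fibrillarin), *nol-56*, *nol-58* and *M28.5*, and the box H/ACA genes *K01G5.5* (the homologue of dyskerin), *Y48A6B.3* and *Y66H1A.4*. *fib-1* had 182 CPM in total RNA, 208 CPM in the PAR-XL input and 579, 374 and 610.2 CPM in the BS1080, DG3913 and N2 cXL inputs. *K01G5.5* had 201 CPM and 207 CPM in total RNA and the PAR-XL input, and 286, 294 and 278 CPM in the cXL inputs. The ratio of PAR-XL input to total RNA of these 7 genes was between 0.972 and 1.14 with a median of 1.05, and 0 of 7 were past a fold of 2. The eighth gene, *nola-3*, whose row is 195 bases long, was listed at 0 in all libraries.

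In the pulldowns the same 7 mRNAs had median ratios of elution to input of 0.714 for PAR-XL, 0.466 for BS1080 cXL, 0.183 for DG3913 and 0.206, 0.245 and 0.268 for the N2 *alg-1*, *gld-1* and *lin-41* elutions, beside medians of all genes tested of 0.238, 0.288, 0.198, 0.626, 0.252 and 0.246. Single genes of the 7 differed widely, with ratios from 0.336 to 2.01 for PAR-XL and from 0.0865 to 1.22 for the N2 *lin-41* elution. *fib-1* had 312 and 629.9 CPM in these elutions, and *nol-56* had 61.2 and 29.1 CPM. The snoRNAs had 3 and 0 counts there, and were not compared with these mRNAs.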

How the data were processed

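The 12 libraries were single-end RNA sequencing libraries of whole worms. The authors quantified the reads with kallisto 0.43.1 against the *C. elegans* transcriptome (WBcel235), with human transcripts for elutions, and set the fragment length from each library's profile. The deposited estimated counts are not normalized, and the TPM, as deposited, add up to 1000000 with human and rRNA rows included. Whether strand was used is not given in the sources used here. Fragment lengths were read back as length minus deposited effective length plus 1 for rows of at least 2000 bases.

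Rows of rRNA (22 genes) and 3 entries that take rRNA reads were left out, and rows were summed per gene. All 345 snoRNAs matched Ensembl release 115 in coordinates. The genome sequence was not used here, so no classes by sequence were assigned. Shares have Wilson intervals and ratios exact conditional (Clopper-Pearson) intervals. A gene was compared with at least 20 counts over both libraries, past a fold of 2, with a limit of 3 counts against a 0. Calls were tested on simulated data only for genes with many counts and with a fold larger than 2. That test does not cover the low counts of most snoRNAs compared. Total counts per library set the precision given in the text.

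The members and lists were chosen with earlier results of these data known. Named were the 10 snoRNAs with the highest mean share over total RNA and inputs, the 3 highest and 3 lowest ratios per comparison, and their hosts. F21F12.3, Y43F4B.12, D2023.18 and Y73B3A.30 were named after their values were seen. Alternatives were TPM, other totals, other filters and thinning, and the exonic members were left out as an alternative added after seeing the data. Python 3.11.15 was used with scipy 1.17.1, pandas 2.3.3, numpy 2.4.6 and matplotlib 3.10.9.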

Additional observations from a re-analysis of the deposited data

Results flagged for a closer look

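The snoRNA share of the PAR-XL input stood apart from the other 3 inputs. It was 14.1 CPM, while the next highest, the DG3913 cXL input, was at 1.17 CPM and the lowest at 0.971 CPM. The gap between the highest pair of values was 0.985 of the range, which exceeds the 95% critical value of Dixon's ratio for 4 samples, a limit that chance passes in about 1 in 20 groups. The 4 inputs differ in strain and crosslinking method and are not replicates. The PAR-XL worms also differed from the cXL worms in culture (liquid against plates) and time of harvest. The yolk gene *vit-6* was at 3649 CPM in the PAR-XL input and at 27663, 29588 and 32837 CPM in the BS1080, DG3913 and N2 cXL inputs. The fragment length set for the PAR-XL input (221 bases) was also below those of the others (286 to 314). The part of these differences in the snoRNA share was not tested. Among the 7 elutions the highest share (1.77 CPM, PFA-XL) had a gap of 0.455, below the critical value.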

How the results depend on the processing

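No paired analysis was possible because each condition had 1 library. The classes by sequence were not run. In TPM the snoRNA total was 4759 (total RNA), 186.4 (PAR-XL input), 33.6 (PAR-XL elution), 63.9 (PFA-XL elution), 14.9, 21.1 and 18.4 (BS1080, DG3913 and N2 cXL inputs) and 9.21 (N2 *gld-1* elution). Without exonic members the shares were 258 CPM (total RNA), 4.79 CPM (PAR-XL input), 0.0539 CPM (BS1080 cXL input) and 0 CPM in the DG3913 and N2 inputs and in 3 elutions (PAR-XL, PFA-XL and N2 *gld-1*). Keeping the entries that take rRNA reads left every share within its interval. Thinned to 268787 counts, the expected genes with at least 3 counts were 1.71 (total RNA), 0.365 (PAR-XL input), 0.000648 (PAR-XL elution), 0.0118 (PFA-XL elution) and 0.00178, 0.00359 and 0.00257 (BS1080, DG3913 and N2 cXL inputs), from 46, 21, 1, 1, 1, 1 and 1.

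The ratio of PAR-XL input to total RNA was 0.0392 in TPM, 0.0593 over the median of all genes, 0.348 without ZK185.9 and 0.0186 without exonic members. The PAR-XL elution to input ratio was 0.180 in TPM, 0.264 without the target, 0.288 over the median and 0 without exonic members. Of the snoRNA genes in the PAR-XL input over total RNA, 1 was higher in TPM, and 1 of 4 was lower with at least 10 counts in each library (10.5% of all genes) and 26 of 116 with at least 1 over both (13.5% of all genes), since these filters change how many genes are compared. In the PAR-XL elution over input, K10D3.10 was lower by the fold, but 0 genes were after division by the median or with at least 10 counts in each. In the N2 *gld-1* elution 1 of 1 was lower with at least 1 count, as were 53.96% of all genes. The ratio of that elution, 0.304, was 1.21 over the median, within its interval. Depth limits all cXL pulldowns, where at most 18 snoRNA counts were in an input.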
